A study of Sus scrofa with 6 samples.

Results

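The extracellular matrix is the meshwork of proteins and sugars outside cells. Fibroblasts secrete fibril-forming collagens (types I, III and V) that carry load, and thinner collagens, glycoproteins and small proteoglycans bind to those fibrils and set their spacing. Beneath the epithelium and around vessels and muscle cells lies the basement membrane, a sheet of type IV collagen and laminins, while elastin on a scaffold of fibrillin gives a tissue recoil. Lysyl oxidases cross-link collagen and elastin, matrix metalloproteinases cut them, and tissue inhibitors of metalloproteinases (TIMPs) block that cutting. In the small intestine these proteins form the core of the villus and the layers around the crypts.

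Here 39 matrix genes were followed through the ileum of neonatal pigs (Sus scrofa). They were taken by name from the 20648 genes of the count tables, and all 39 were present. They comprise 6 genes of fibrils and their surface (COL1A1, COL1A2, COL3A1, COL5A1, COL5A2, COL14A1), 2 of collagen VI (COL6A2, COL6A3) and 7 of the basement membrane (COL4A1, COL4A2, COL15A1, COL18A1, LAMA4, LAMB1, LAMC1). A further 8 encode glycoproteins and other secreted proteins of the matrix (FN1, TNC, POSTN, SPARC, SPARCL1, SPON1, IGFBP7, PTN), 4 encode small proteoglycans and dermatopontin (DCN, LUM, BGN, DPT) and 6 encode proteins of elastic fibres (ELN, FBN1, FBLN1, FBLN5, MFAP4, MFAP5). The last 6 encode cross-linking enzymes, a protease and its inhibitors (LOX, LOXL1, MMP2, TIMP1, TIMP2, TIMP3).

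Scraped ileal mucosa of male piglets had been taken apart into single cells on days 0, 1, 3, 7, 14 and 21 after birth, and 1 droplet library was made per age. The study's methods give 5 piglets per age and 1 chip channel per age, the piglets carried no treatment or engineered allele, and how the cells of the 5 animals were combined is not given in the sources used here. The sample labels and the methods name the ileum, whereas the description of the series names the cecum. With 1 library per age, no difference between ages has a replicate check and age cannot be told apart from library. Differences between cell classes were measured within each library, in 2 to 5 libraries of different ages, and no p-value was computed for either kind. Each captured messenger RNA was counted once by its unique molecular identifier (UMI). Libraries held 77391932 to 100348769 UMIs, and barcodes with at least 1000 UMIs and 500 genes were taken as cells, 10836 to 15956 per library and 76099 in all. Pairs of libraries shared 31 to 68 cell barcodes, where 18.1 to 32.4 would be shared by chance.

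Cells were sorted into classes by UMIs of a few gate genes. Fibroblasts had at least 5 UMIs of COL3A1 plus COL1A1 and none of PECAM1, so these 2 members are given for fibroblasts as a description and are left out of the counts, medians and sums that set fibroblasts against other cells, except where a sum over all 39 genes is named. Endothelial cells had at least 3 UMIs of PECAM1 plus FLT1, and muscle cells, which here include pericytes, at least 5 of RERGL, RASL12 and ACTA2. Epithelial cells (at least 5 UMIs of EPCAM, KRT8 and VIL1) and B cells (at least 2 of MS4A1 and PAX5) stood for cells that make little matrix. A level is the number of UMIs of a gene per 10000 UMIs summed over the cells of a class. Intervals are exact Poisson intervals at 95% for levels and matching exact intervals for ratios, and they cover counting error only. The 3′ end of a transcript is counted, so levels of different genes are not compared for their size. A class without a UMI of a gene still allows up to 3 counts, which in endothelial cells is a level of 0.0126 on day 0 and 0.0343 on day 3.

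The fibroblast gate held 308, 390 and 220 cells on days 0, 1 and 3, but 1, 3 and 6 cells on days 7, 14 and 21. The endothelial gate held 271, 348 and 64 cells on those 3 ages and the muscle gate 134, 162 and 103. Of other markers, PDGFRA, a receptor of fibroblasts, stood at 3.31, 3.96 and 4.53 UMIs per 10000 in the fibroblast class and at 0.046, 0.038 and 0 in the endothelial class. All 10 genes of an endothelial list, such as CDH5 and VWF, were detected in the endothelial class on days 0 and 1, with a summed level of 41.6 and 40.2. On day 3 that level was 14.0, B-lineage markers summed to 10.0 instead of 0.64 and 0.75, and 45.3% of the endothelial class also met the B-cell gate. On days 14 and 21 the endothelial list stood at 0.07 and 0.22 and 94.6% and 91.3% of the class met the B-cell gate, so the data go against the endothelial label there. Matrix genes are therefore described by class on days 0, 1 and 3 and over all cells on every day.

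The fibroblast and muscle gates overlapped. Cells in both made up 53.0% of the muscle class on day 0, 48.8% on day 1 and 79.6% on day 3, and a list of muscle and pericyte markers summed to 22.0, 32.8 and 54.5 in the fibroblast class. Values for cells that met only 1 of the 5 gates are given beside the others where they differ. These were 221, 295 and 124 fibroblasts, 233, 309 and 35 endothelial cells and 54, 68 and 13 muscle cells on days 0, 1 and 3.

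Over all cells, matrix genes were abundant in the libraries of the first 3 ages and scarce in those of the last 3. The 39 genes summed to 12.5 UMIs per 10000 on day 0, 29.5 on day 1 and 10.7 on day 3, and to 0.898, 0.978 and 0.290 on days 7, 14 and 21. The level of day 0 was 43.2-fold that of day 21, or 70.5-fold with each cell thinned to 1000 UMIs and 72.6-fold as a mean over cells. TIMP1 alone made up 38.6% of the matrix UMIs of day 1 and 71.7% of those of day 14. Without TIMP1 the other 38 genes stood at 11.7, 18.1 and 8.57 per 10000 and then at 0.347, 0.277 and 0.220. A sum over all cells depends on how many cells of each class a library held, and the stromal gates held few cells from day 7.

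**Figure D1:**
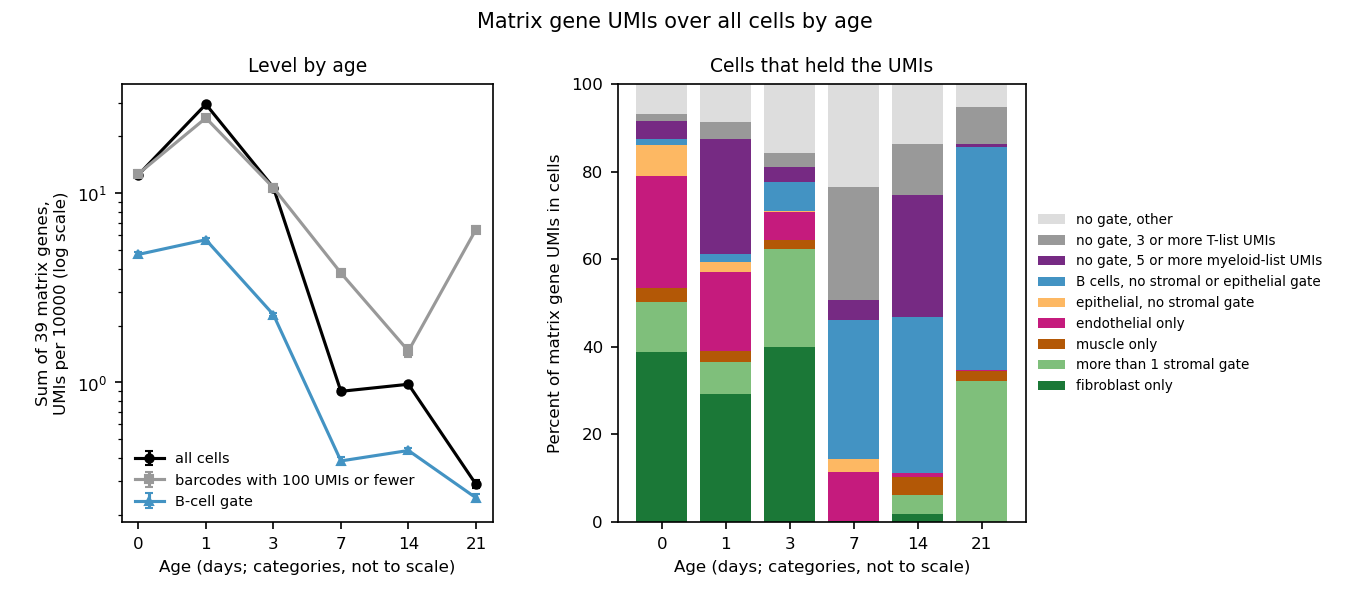
The left panel plots the sum of the 39 matrix genes in UMIs per 10000 (log scale) against age for all cells, for B cells and for barcodes with 100 UMIs or fewer, with exact 95% Poisson intervals. The right panel gives the percent of matrix UMIs held by each group of cells, and shows stromal gates holding most of them on days 0, 1 and 3 and B cells holding 50.9% on day 21.

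Most of these UMIs lay in stromal cells. Over all ages the cells of the fibroblast, endothelial and muscle gates held 63.1% of the 384654 matrix UMIs, and 85.0% once TIMP1 was left out. On day 0 cells in the fibroblast gate alone held 38.9%, cells in the endothelial gate alone 25.5%, cells in the muscle gate alone 3.19% and cells in more than 1 of these gates 11.4%. On day 1 the cells outside all gates with at least 5 UMIs of a myeloid list (CSF1R, CD68, AIF1 and others) held 26.2%, most of it TIMP1. On day 21, 7 cells that met more than 1 stromal gate held 591 of the 1833 matrix UMIs, or 32.2%.

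Cells rich in matrix RNA were fewer in the libraries of the last 3 ages than in those of the first 3. Those in which the 37 genes outside the gate made up at least 1% of the UMIs numbered 564 on day 0, 1039 on day 1 and 273 on day 3, and 12, 48 and 4 on days 7, 14 and 21. They were 5.20%, 9.04% and 2.40% of cells on the first 3 ages and 0.0950%, 0.301% and 0.0289% on the last 3. Of them 504, 635 and 234 met a stromal gate on days 0, 1 and 3, and 4, 7 and 4 on days 7, 14 and 21. On day 1, 317 of the 1039 carried at least 5 UMIs of the myeloid list, and on day 14, 28 of the 48. The 37 genes include TIMP1, which made up most of the matrix UMIs of ungated cells with the myeloid list on day 1. How many cells would reach 1% without TIMP1 was not tested.

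Barcodes with 100 UMIs or fewer, which hold too little RNA for a cell, gave the background. Their 38 matrix genes other than TIMP1 summed to 11.97, 18.5 and 8.35 per 10000 on days 0, 1 and 3, beside 11.7, 18.1 and 8.57 in all cells. On days 7, 14 and 21 they summed to 2.80, 0.607 and 6.12, above the 0.347, 0.277 and 0.220 of all cells. The B-cell class stood at 4.36, 3.89 and 1.74 and the epithelial class at 2.07, 2.30 and 1.74, below these barcodes at each of the 3 ages. A matrix gene at or below the level of these barcodes in another class was read as possible background. The share of such RNA in the cells was not estimated.

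Set against B cells, the fibroblast class was higher for every matrix gene that could be compared. A gene was compared where at least 10 UMIs were expected in each class of each library, and called where it differed at least 2-fold in the same direction in all 3 libraries. All 25 genes compared outside the gate were called higher, against 9.3% of the 7710 genes compared in all, and none was lower, against 6.91%. The limit was set on the pooled rate, and the B-cell class held far more UMIs. Most of these genes passed it only through their fibroblast UMIs, so this count follows in part from the limit. TNC, for instance, had 454 fibroblast and 51 B-cell UMIs on day 3. The median difference was 6.75 on the log2 scale for these genes and 0.14 for all genes. Trimmed mean scaling shifted this contrast by -0.38 to -0.57 on the log2 scale. The other 12 genes had too few expected UMIs and were not compared. The lowest differences were those of TIMP2, at 2.24, 3.12 and 4.02 on the log2 scale on days 0, 1 and 3, and of TIMP1, at 2.46, 2.09 and 2.96.

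**Figure D2:**
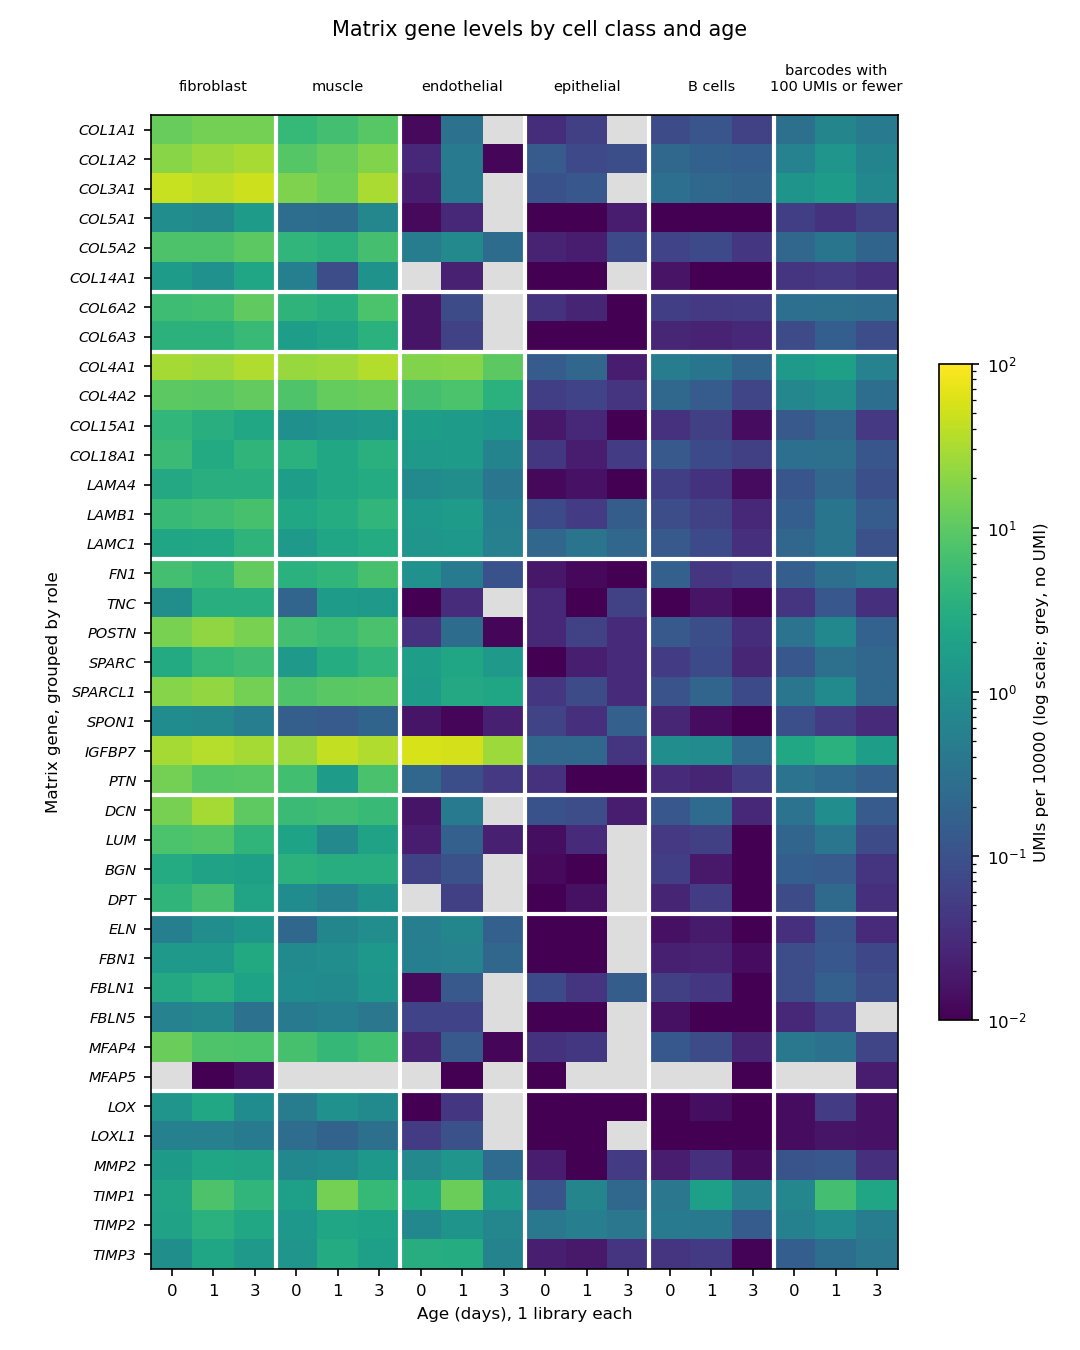
Each row is a matrix gene, grouped by role, and each column is 1 library of a cell class at day 0, 1 or 3; colour gives UMIs per 10000 on a log scale, and grey marks no UMI. Fibrillar collagens and small proteoglycans are bright in the fibroblast and muscle columns and dark in the endothelial ones, whereas COL4A1 and IGFBP7 are bright in all 3 stromal classes.

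Fibrillar collagens outside the gate were higher in fibroblasts than in endothelial cells. COL1A2, which pairs with COL1A1 in type I collagen, stood at 19.3, 24.9 and 29.5 UMIs per 10000 in fibroblasts on days 0, 1 and 3 and at 0.0294, 0.460 and 0.0114 in endothelial cells. Its differences were 9.36, 5.76 and 11.33 on the log2 scale, and the 2 classes lay far apart in every library. COL5A2, a chain of the type V collagen that starts fibrils, stood at 7.60, 7.51 and 9.91 in fibroblasts against 0.487, 0.756 and 0.263. COL14A1, which coats fibrils, reached 1.63, 1.06 and 2.30 in fibroblasts and had no endothelial UMI on days 0 and 3. The gate genes are given as a description only, since their order was fixed by the gate. The part of the gate in the differences of the other fibrillar collagens was not tested. COL3A1 stood at 46.9, 40.03 and 48.8 and COL1A1 at 11.6, 14.7 and 14.5 in the fibroblasts they were used to choose. COL3A1 (chromosome 15, 93556914 to 93595678 of Sscrofa11.1) and COL5A2 (93611856 to 93981131) are neighbours in the genome, 16177 bases apart.

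Of the 37 genes outside the gate, 36 could be compared between fibroblasts and endothelial cells and 25 were higher in fibroblasts in each of the 3 libraries, against 7.76% of all genes compared. None was lower, against 2.45% of all genes. The limit of expected UMIs was set on the pooled rate, so genes with few endothelial UMIs passed it through fibroblasts. COL14A1 had 0, 8 and 0 endothelial UMIs on days 0, 1 and 3, and DPT 0, 20 and 0. The count of higher genes, here and by group of genes below, follows in part from that limit. The median difference was 3.74 on the log2 scale, with classes without a UMI set at 3 counts, and 0.06 for all genes. In cells that met 1 gate only, 23 of 35 genes compared were higher and none lower, where 9.29% and 5.36% of all genes were. Collagen VI, which forms beaded filaments around cells, was among them. COL6A2 stood at 5.82, 6.25 and 10.7 in fibroblasts and at 0.0168, 0.0840 and 0 in endothelial cells.

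The small proteoglycans, which bind to collagen fibrils, were also higher in fibroblasts than in endothelial cells. Decorin (DCN) stood at 14.9, 29.4 and 10.1 in fibroblasts on days 0, 1 and 3 and at 0.0168, 0.449 and 0 in endothelial cells. Lumican (LUM) stood at 7.37, 8.07 and 4.22 against 0.0210, 0.171 and 0.0228. DCN and LUM lie 34945 bases apart on chromosome 5. Dermatopontin (DPT), a small protein that binds decorin, reached 4.09, 6.71 and 2.17 in fibroblasts and 0, 0.0579 and 0 in endothelial cells.

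Of the 8 glycoproteins and other secreted proteins, 6 were higher in fibroblasts than in endothelial cells in all 3 libraries (FN1, TNC, POSTN, SPARCL1, SPON1 and PTN) and none was lower, where 7.76% and 2.45% of all genes were. Periostin (POSTN), a matrix protein of fibroblasts, stood at 15.5, 21.6 and 15.6 in fibroblasts against 0.0378, 0.261 and 0.0114 in endothelial cells. Pleiotrophin (PTN), a secreted growth factor that binds to heparan sulphate, stood at 14.7, 8.96 and 9.19 against 0.206, 0.0927 and 0.0457. SPARCL1 was higher in fibroblasts with a smaller gap, at 18.8, 22.1 and 14.4 against 1.62, 2.64 and 2.24. Its relative SPARC, a collagen-binding protein, was not called, at 2.74, 4.81 and 5.90 against 1.72, 2.23 and 1.43. Among cells of 1 gate the day 3 levels were 18.1 against 6.74 for SPARCL1 and 6.99 against 4.47 for SPARC.

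IGFBP7, a secreted protein bound to vascular basement membranes, had its higher level in endothelial cells on 2 of the 3 ages. It stood at 29.0, 36.5 and 29.3 in fibroblasts and at 57.6, 55.8 and 25.8 in endothelial cells. In cells that met 1 gate only the endothelial levels were 88.7, 64.4 and 77.9 and the fibroblast levels 37.5, 40.2 and 27.2, a difference of -1.24, -0.68 and -1.52 on the log2 scale. TIMP3, the inhibitor that binds to the matrix itself, had endothelial levels of 4.61, 3.31 and 1.89 and fibroblast levels of 1.13, 2.41 and 0.965 in the same cells. In the whole classes TIMP3 stood at 3.06, 2.97 and 0.617 in endothelial cells and 0.996, 2.23 and 1.40 in fibroblasts, so its direction on day 3 turned with the choice of cells. Neither gene passed 2-fold in all 3 libraries. Over all ages, 57.1% of IGFBP7 UMIs and 52.0% of TIMP3 UMIs lay in cells of the endothelial gate alone.

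Of the 7 basement membrane genes, 2 were higher in fibroblasts than in endothelial cells in all 3 libraries, where 7.76% of all genes were, and none was higher in fibroblasts than in muscle cells, where 1.02% were. Among cells of 1 gate, LAMB1 and COL15A1 were higher in fibroblasts than in muscle cells on days 0 and 1, where 10.2% of all genes were, LAMB1 at 7.21 and 6.94 against 1.93 and 2.42. COL15A1 had 2 muscle UMIs on each day and passed the limit of expected UMIs through fibroblasts. COL4A1, the main chain of type IV collagen with COL4A2, stood at 28.9, 25.6 and 33.1 in fibroblasts, 24.0, 26.4 and 34.7 in muscle cells and 17.2, 18.6 and 9.84 in endothelial cells. COL4A2 stood at 9.80, 9.52 and 10.8, at 8.02, 11.3 and 12.6 and at 6.64, 7.32 and 3.64 in the same classes. In cells that met 1 gate only, COL4A1 and COL4A2 differed between fibroblasts and endothelial cells by 0.48 or less on the log2 scale at each age. The 2 genes overlap at their ends on chromosome 11, where COL4A1 ends at base 76997409 and COL4A2 starts at base 76996885. Whether reads from the overlap entered either count was not tested. LAMA4 and LAMB1, chains of laminins found around vessels and muscle, were higher in fibroblasts than in endothelial cells in each library, by 1.65, 1.77 and 3.15 and by 1.86, 1.83 and 3.68 on the log2 scale. Among cells of 1 gate the differences of day 3 were 1.58 and 2.35. LAMC1, the chain that most laminins share, was not called and had 34.9% of its UMIs over all ages in epithelial-gate cells outside the stromal gates. Its epithelial levels of 0.208, 0.349 and 0.211 on days 0, 1 and 3 compare with 0.205, 0.353 and 0.0986 in barcodes with 100 UMIs or fewer.

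COL15A1 and COL18A1, which link basement membranes to the matrix beneath, differed among classes. In cells that met 1 gate only, COL15A1 stood at 7.12, 4.12 and 3.57 in fibroblasts and 2.60, 1.78 and 3.66 in endothelial cells. Muscle cells of that kind had 0.107 and 0.0746 on days 0 and 1. COL18A1 had its highest levels in fibroblasts and muscle cells, at 7.42, 3.25 and 4.90 and at 5.78, 3.21 and 7.79, beside 2.04, 1.87 and 1.93 in endothelial cells.

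**Figure D3:**
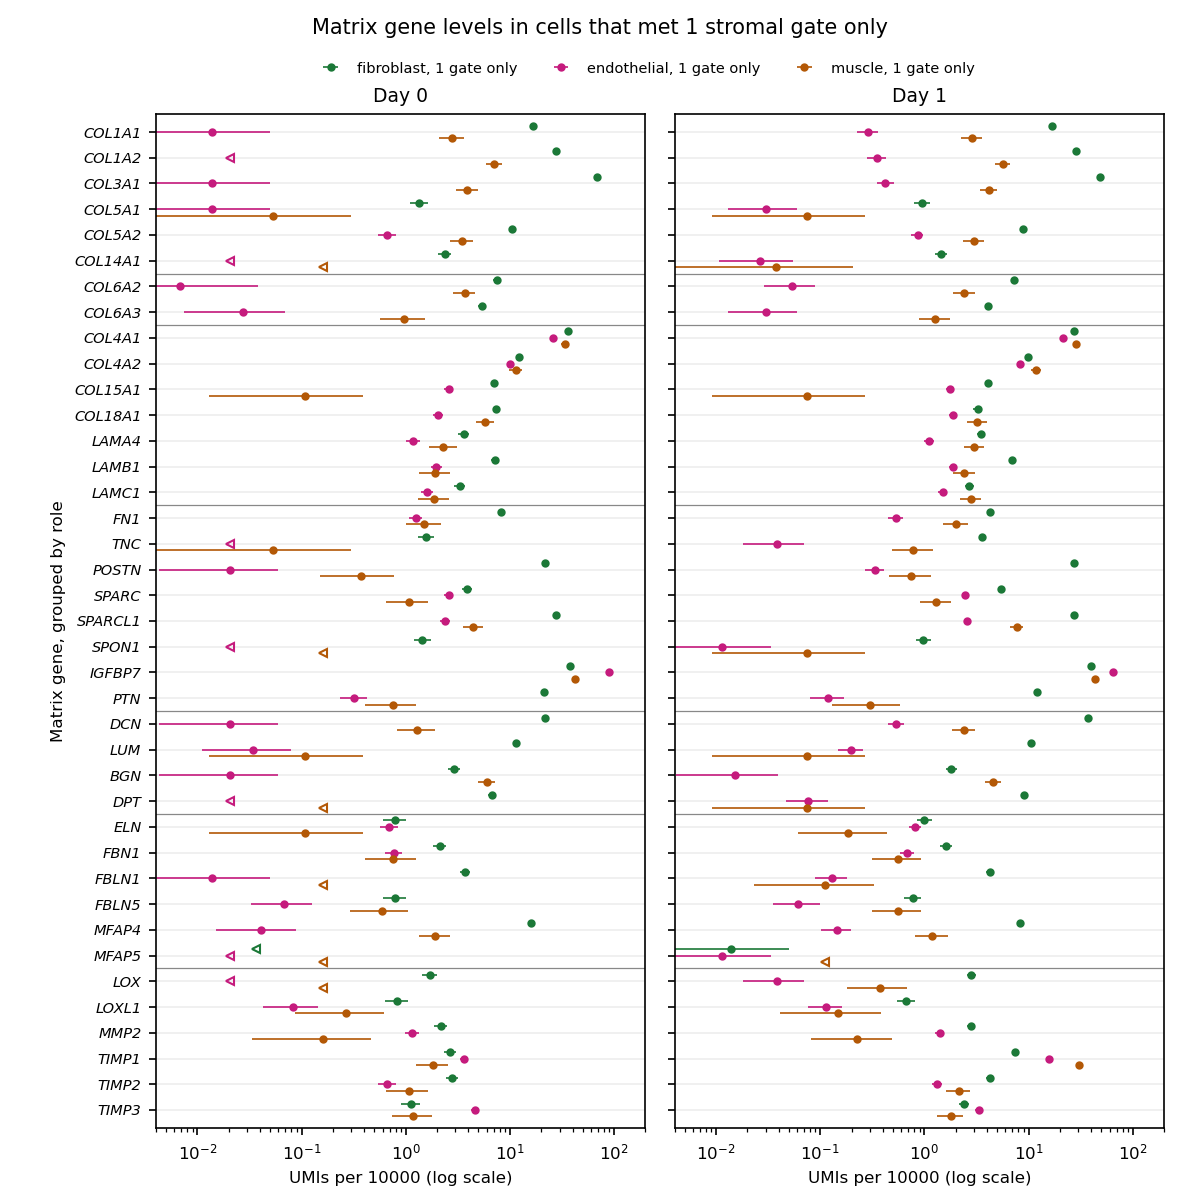
Levels of the 39 genes in UMIs per 10000 (log scale) on day 0 and day 1 in cells that met 1 gate only, with exact 95% Poisson intervals; an open triangle marks a class without a UMI, drawn at the level of 3 counts. COL4A1 and COL4A2 lie close together in the 3 classes, whereas LUM, POSTN, DPT and PTN are higher in fibroblasts and BGN is highest in muscle cells on both days.

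Of 5 elastic fibre genes compared, 4 were higher in fibroblasts than in endothelial cells, where 7.76% of all genes were, and none was higher than in muscle cells, where 1.02% were. Among cells of 1 gate, 4 of 5 were higher in fibroblasts than in muscle cells on days 0 and 1, where 10.2% of all genes were. Of these, ELN had 2 and 5 muscle UMIs and FBLN1 0 and 3, so both passed the limit of expected UMIs through fibroblasts. MFAP4, which binds to elastic fibres, stood at 12.4, 7.91 and 7.28 in fibroblasts against 0.0252, 0.130 and 0.0114 in endothelial cells. Fibrillin-1 (FBN1), the scaffold, was higher in fibroblasts by 1.42, 1.28 and 3.72 on the log2 scale, and by 2.33 on day 3 among cells of 1 gate. Elastin (ELN) itself was not called between fibroblasts and endothelial cells. It stood at 0.536, 0.909 and 1.29 in fibroblasts and at 0.512, 0.689 and 0.171 in endothelial cells, and 33.1% of its UMIs over all ages lay in cells of the endothelial gate alone. Among cells of 1 gate the day 3 levels of ELN were 1.42 in fibroblasts and 0.578 in endothelial cells. MFAP5, another protein of microfibrils, had 105 UMIs in all cells of all ages, 57.1% of them in ungated cells with at least 3 UMIs of a T-cell list, and reached 0, 0.00932 and 0.0147 per 10000 in fibroblasts. It was the gene left out of the comparison.

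Elastin was not spread evenly over the endothelial class. Cells with at least 2 UMIs of a lymphatic list (PROX1, LYVE1, FLT4, CCL21, MMRN1) numbered 70 and 105 on days 0 and 1, and those with none 163 and 200. ELN stood at 1.40 and 1.78 in the first and 0.183 and 0.211 in the second. Fibronectin (FN1), a glycoprotein that links cells to collagen, stood at 3.15 and 0.883 against 0.233 and 0.312, and COL5A2 at 0.901 and 1.38 against 0.375 and 0.354. These 3 were the genes of 18 compared that were at least 2-fold higher on both days, against 3.78% of all genes. None was lower, against 1.4% of all genes. The split was chosen after seeing the data.

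Fibroblasts and muscle cells differed less while cells of both gates were counted in both. Of 36 genes compared, 6 were higher in fibroblasts in all 3 libraries, against 1.02% of all genes, and none was lower, against 0.954%. The 6 were POSTN, COL5A1, COL14A1, LUM, DPT and SPON1. In cells that met 1 gate only, which sufficed on days 0 and 1, 25 of 36 genes were higher in fibroblasts, against 10.2% of all genes. Genes with few muscle UMIs passed the limit of expected UMIs through fibroblasts, so this count follows in part from the limit. On days 0 and 1, COL14A1 had 0 and 1 muscle UMIs there, FBLN1 0 and 3, DPT 0 and 2, and LUM 2 and 2. Without day 3 but with cells of both gates, 15 of 36 were higher and none lower, against 2.33% and 2.06% of all genes. Muscle cells of 1 gate were chosen to have fewer than 5 UMIs of the gate genes or a UMI of PECAM1, and the part of that choice in the other genes was not tested. In those cells LUM stood at 11.4 and 10.7 in fibroblasts and 0.107 and 0.0746 in muscle cells. POSTN stood at 22.0 and 27.5 against 0.375 and 0.746. Barcodes with 100 UMIs or fewer had LUM at 0.199 and 0.366 and POSTN at 0.336 and 0.738. The muscle levels of LUM were below these and those of POSTN slightly above them. How much of the muscle levels was background was not tested.

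In muscle cells of 1 gate the 7 basement membrane genes, of which COL4A1 and COL4A2 had the most UMIs, summed to 57.3, 52.2 and 54.8 per 10000 on days 0, 1 and 3, beside 45.6, 37.6 and 49.4 in endothelial cells and 77.4, 57.9 and 66.1 in fibroblasts. The 4 fibril genes outside the gate summed to 10.6, 8.77 and 10.1 in these muscle cells, 0.677, 1.27 and 0.848 in endothelial cells and 41.7, 40.05 and 53.5 in fibroblasts. Biglycan (BGN), a proteoglycan close to decorin, was the gene lower in fibroblasts on both days, against 5.24% of all genes. It stood at 6.05 and 4.55 in muscle cells, 2.90 and 1.81 in fibroblasts and 0.0205 and 0.0152 in endothelial cells.

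Endothelial and muscle cells were compared over the 5 libraries with at least 20 cells in both classes. These include days 14 and 21, where the data go against the endothelial label and where 87.5% and 93.3% of the muscle class met the B-cell gate, and 4 genes were compared. COL1A2 was lower in the endothelial class, against 0.655% of all genes, and none was higher, against 0.0819%. On days 0, 1 and 3, a choice made after seeing the data, 19 of 33 genes were lower in endothelial cells, against 5.46% of all genes, and none was higher, against 2.26%. Without COL1A1 and COL3A1, by which the fibroblasts within the muscle class were chosen, 17 of 31 genes were lower. The 4 genes of small proteoglycans and dermatopontin were among the lower genes, in muscle classes of which 48.8% to 79.6% of cells also met the fibroblast gate. In cells of 1 gate only, on days 0 and 1, BGN, COL1A2 and COL5A2 were lower of 20 genes compared, against 3.98% of all genes. DCN, LUM and DPT had too few expected UMIs to be compared there. On days 0 and 1 DCN stood at 0.0205 and 0.537 in endothelial cells and 1.28 and 2.39 in muscle cells, and LUM, from 2 UMIs in muscle cells on each day, at 0.0342 and 0.198 against 0.107 and 0.0746. There COL15A1, ELN and MMP2, a gelatinase, were higher in endothelial cells, 3 of 20 genes, which is close to the 14.8% of all genes. In muscle cells COL15A1 had 2 UMIs on each day, ELN 2 and 5, and MMP2 3 and 6. These 3 genes passed the limit of expected UMIs through the endothelial class. MMP2 stood at 1.14 and 1.41 against 0.161 and 0.224.

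Within the fibroblast class, PTN marked the cells with PDGFRA. Fibroblasts with at least 2 PDGFRA UMIs had PTN at 29.6, 16.9 and 15.4 per 10000 on days 0, 1 and 3, and those without had 4.33, 2.06 and 3.33. BGN showed the reverse order, at 1.67, 1.27 and 0.762 against 3.78, 2.60 and 3.80. Of 36 genes compared, PTN was the gene called higher, against 1.83% of all genes, and BGN the gene called lower, against 1.42%. Fibroblasts that also met the muscle gate had lower COL5A1, COL14A1, LUM and SPON1 than those outside it, 4 of 36 genes against 1% of all genes, and none was higher, against 1.48%. LUM, for instance, stood at 3.17, 1.38 and 2.34 against 9.64, 10.1 and 5.49. Both splits were chosen after seeing the data.

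The 37 members outside the gate summed to 241.7, 278.8 and 256.6 per 10000 in fibroblasts, 139.7, 178.4 and 201.2 in muscle cells and 101.6, 116.5 and 50.2 in endothelial cells. In cells of 1 gate only they summed to 333, 326 and 294 in fibroblasts, 138, 167 and 139.9 in muscle cells and 153, 134 and 150.3 in endothelial cells, so fibroblasts were highest in both sets and the order of the other classes was not the same. Among cells without PECAM1 UMIs, those with 3 to 4 UMIs of COL3A1 plus COL1A1, just outside the gate, had 74.4, 131 and 108 per 10000 of the 37 genes. Those with 5 to 6, just inside, had 134, 124 and 107 and those with 7 or more had 250, 292 and 265. Cells with no UMI of either gene had 2.40, 12.97 and 2.86.

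From day 0 to day 1 the summed level of the 39 genes in fibroblasts went from 300.2 to 333.5 per 10000, and on day 3 it was 319.8. In fibroblasts of 1 gate it was 419, 391 and 373, so the direction from day 0 to day 1 turned with the choice of cells, as it did for the 37 genes outside the gate. Single genes differed between libraries. Of 36 genes compared outside the gate, 3 were at least 2-fold higher on day 1 than on day 0, against 5.8% of all genes, and none was lower, against 4.48%. With each cell thinned to 1000 UMIs, 1 gene was higher and 2 were lower. The shares of all genes with thinned cells are not given here, so these counts show only how the calls moved. The median difference was 0.17 on the log2 scale for the members and 0.06 for all genes. Tenascin-C (TNC), a glycoprotein of growing and healing tissue, went from 0.932 to 3.16, a ratio of 3.40 (2.84 to 4.09). TIMP3 went from 0.996 to 2.23, a ratio of 2.24 (1.86 to 2.70). TIMP1, the main secreted inhibitor, went from 2.15 to 7.64, a ratio of 3.55 (3.16 to 4.005). DCN and LOX, a lysyl oxidase, lay just under the limit, with ratios of 1.97 (1.88 to 2.07) and 1.99 (1.69 to 2.36).

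From day 1 to day 3, 3 of 36 genes were at least 2-fold higher, against 7.1% of all genes, and 4 were lower, against 5.79%. In cells that met 1 gate only more genes were lower. With thinned cells, or as a mean over cells, more were higher. The shares of all genes under these settings are not given here. The median difference was 0.00 for the members and 0.12 for all genes on the log2 scale. FN1 went from 4.71 to 10.9, a ratio of 2.31 (2.13 to 2.51), after 6.48 on day 0. COL14A1 went from 1.06 to 2.30 and COL5A1 from 0.774 to 1.62. The ratios of COL14A1 and COL5A1 were 2.17 (1.82 to 2.59) and 2.09 (1.70 to 2.58), and both intervals reach below the limit. Scaling the classes by the trimmed mean of M values, with a shift of -0.15 on the log2 scale for this contrast, left 1 gene higher. The same shift lowers the ratio of every gene.

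The genes that were lower on day 3 were DCN, DPT, LOX and FBLN5, a protein needed to assemble elastic fibres. DCN went from 29.4 to 10.1, a ratio of 0.344 (0.324 to 0.365), and DPT from 6.71 to 2.17, a ratio of 0.324 (0.285 to 0.367). LOX went from 2.44 to 0.868 and FBLN5 from 0.708 to 0.324. LUM went from 8.07 to 4.22, a ratio of 0.522 that missed the limit but passes it under the shift of trimmed mean scaling. The 4 proteoglycan and dermatopontin genes together stood at 29.2 on day 0, 46.2 on day 1 and 18.4 on day 3, whereas the 4 fibril genes outside the gate stood at 29.5, 34.2 and 43.3. In fibroblasts of 1 gate the same sums were 42.7, 58.8 and 24.4 and 41.7, 40.05 and 53.5.

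**Figure D4:**
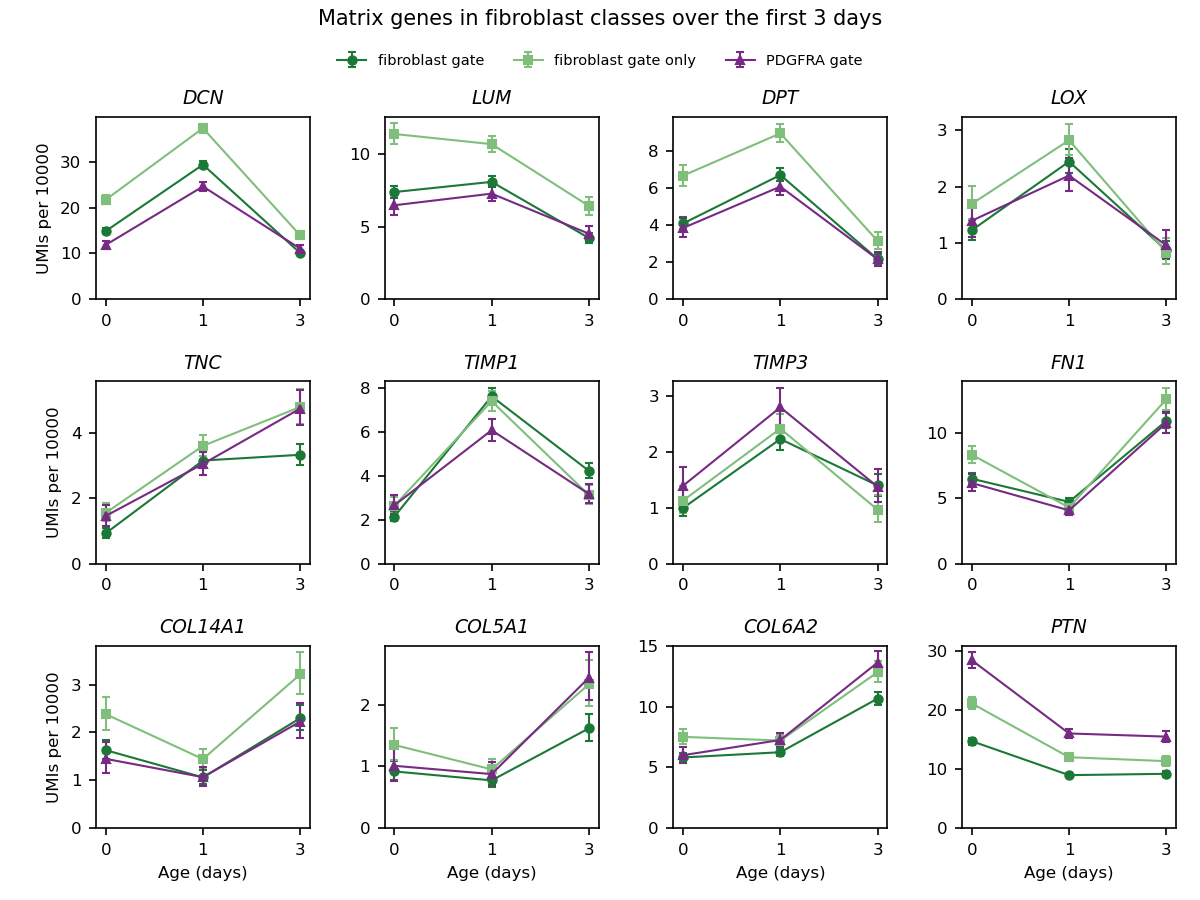
UMIs per 10000 of 12 matrix genes on days 0, 1 and 3 in all fibroblasts of the gate, in those that met 1 gate only and in cells chosen by PDGFRA, without a UMI of PECAM1, instead, with exact 95% Poisson intervals. In all 3 sets DCN, DPT and LOX are highest on day 1 and lowest on day 3, and FN1, COL5A1 and COL14A1 are highest on day 3.

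The muscle and pericyte list in the fibroblast class was higher at each later age, at 22.0, 32.8 and 54.5, and 23.1%, 20.3% and 37.3% of fibroblasts met the muscle gate. Its part in the differences between ages was not tested. DCN and LOX had the same order of ages in fibroblasts that met 1 gate only, where DCN stood at 21.7, 37.3 and 14.0 and LOX at 1.69, 2.82 and 0.829.

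TIMP1 was highest on day 1 in each class. It stood at 2.15, 7.64 and 4.24 in fibroblasts, 2.50, 12.5 and 1.44 in endothelial cells and 1.80, 14.4 and 4.84 in muscle cells on days 0, 1 and 3. In epithelial cells it stood at 0.106, 0.669 and 0.221 and in B cells at 0.392, 1.79 and 0.546. Barcodes with 100 UMIs or fewer had 0.705, 6.45 and 2.34, so the background was also highest on day 1 and lay close to the fibroblast level of that day. Ungated cells with the myeloid list had the highest levels, at 14.1, 82.4 and 13.7, and numbered 287, 982 and 152. They held 50400 of the 78996 TIMP1 UMIs of day 1. The share of stromal cells with a TIMP1 UMI, each cell thinned to 1000 UMIs, was 21.1%, 32.6% and 23.2% in fibroblasts, 20.3%, 35.3% and 18.8% in endothelial cells and 13.4%, 35.2% and 24.3% in muscle cells.

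**Figure D5:**
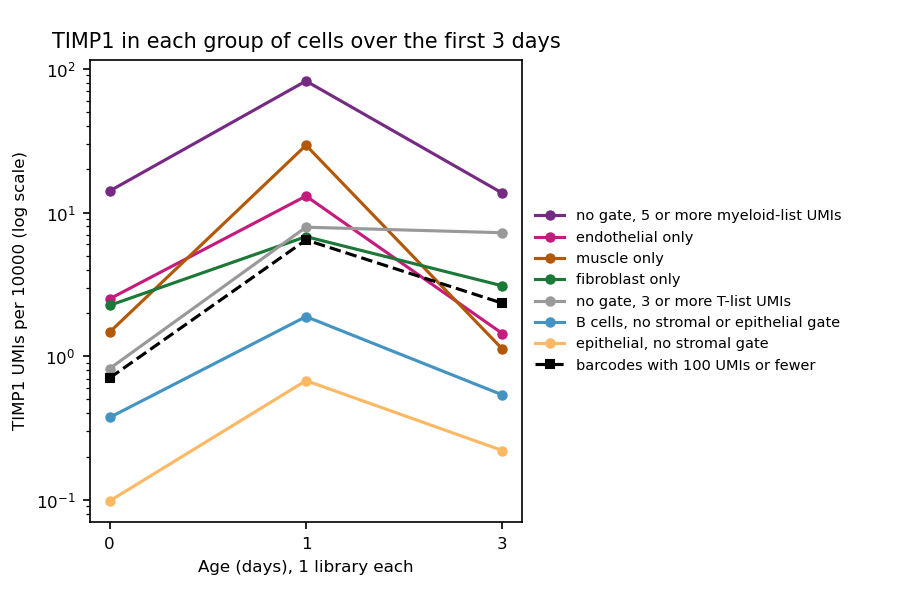
TIMP1 in UMIs per 10000 (log scale) on days 0, 1 and 3 in exclusive groups of cells and, dashed, in barcodes with 100 UMIs or fewer. Every group of cells is highest on day 1, and ungated cells with the myeloid list are above all others on each day, at 82.4 on day 1.

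TIMP2, an inhibitor that also takes part in the activation of MMP2, had 30.5% of its 13827 UMIs in ungated cells with the myeloid list, at 4.27, 4.55 and 2.06 per 10000. In B cells TIMP2 stood at 0.432, 0.418 and 0.148 and in epithelial cells at 0.404, 0.515 and 0.391, below the 0.582, 0.855 and 0.498 of barcodes with 100 UMIs or fewer. SPON1 (spondin-1), a secreted adhesion protein, had 37.5% of its 1039 UMIs in epithelial-gate cells, at levels of 0.0657, 0.0341 and 0.171 on days 0, 1 and 3. Barcodes with 100 UMIs or fewer had 0.0959, 0.0489 and 0.0311, so the epithelial level was above them on day 3 only. In fibroblasts it stood at 0.894, 0.750 and 0.522.

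In endothelial cells 11 of 32 genes were at least 2-fold higher on day 1 than on day 0, against 6.39% of all genes, and 2 were lower, against 4.79%. With each cell thinned to 1000 UMIs, 2 of 18 genes were higher and none lower, and without cells that had a UMI of the leukocyte gene PTPRC none of 31 was lower. The shares of all genes under these 2 settings are not given here. TIMP1 led by level, with a ratio of 4.99 (4.58 to 5.45), and the myeloid list in this class stood at 0.613 and 7.69 on the 2 days. Its part was not tested. The other 10 were genes that fibroblasts carry, among them COL1A1, COL1A2, COL3A1, DCN, POSTN and LUM, and they had 3 to 9 UMIs each on day 0. They passed the limit of expected UMIs only through day 1, where they were high. All 10 had a day 1 level below that of barcodes with 100 UMIs or fewer. COL1A1 rested on 3 UMIs on day 0 and 111 on day 1, a ratio of 25.5 (8.51 to 126), and its day 1 level of 0.321 was below the 0.664 of barcodes with 100 UMIs or fewer. DCN followed with 4 and 155 UMIs and a level of 0.449 on day 1, beside 0.930 in those barcodes. The lower genes were FN1, with a ratio of 0.444 (0.362 to 0.543), and PTN, with 0.450 (0.279 to 0.717). PTN was below those barcodes on both days.

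From day 1 to day 3, 19 of 24 genes were lower in the endothelial class and none was higher, against 24.9% and 7.69% of all genes. The B-lineage list in this class stood at 0.75 and 10.0 on the 2 days, and its part was not tested. In cells that met 1 gate only, 2 of 19 genes were higher, against 2.32% of all genes, and 2 lower, against 10.2%. Without cells that had a PTPRC UMI, 3 of 16 were higher, against 2.21% of all genes, and none lower, against 12.1%. IGFBP7 went from 55.8 to 25.8 in the whole class and from 64.4 to 77.9 in cells of 1 gate, and COL4A1 from 18.6 to 9.84 and from 21.2 to 28.5. Of the 19 genes compared in both sets of cells, 10 turned direction, namely these 2 with COL4A2, COL15A1, COL18A1, LAMA4, SPARC, SPARCL1, FBN1 and TIMP2. SPARCL1 went from 2.64 to 2.24 in the whole class and from 2.58 to 6.74 in cells of 1 gate, and COL15A1 from 1.64 to 1.28 and from 1.78 to 3.66. For COL18A1, LAMA4 and FBN1 the difference in cells of 1 gate was small, at 0.045, 0.052 and 0.026 on the log2 scale. These values rest on 35 endothelial cells of 1 gate on day 3.

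Other genes of matrix biology were followed on lists of related genes. Of other interstitial matrix genes, 13 of 16 compared were higher in fibroblasts than in endothelial cells in all 3 libraries, where 7.76% of all genes were, and of genes that process or cross-link collagen 7 of 14. LOXL2, a lysyl oxidase, and ADAMTS2, which trims the ends of procollagen, led the latter with differences of 4.64 and 5.82 on the log2 scale. Of matrix proteases and inhibitors 6 of 11 were higher, led by the collagenase MMP1 at 7.57 and the stromelysin MMP3 at 6.03. MMP1 stood at 10.5, 6.55 and 6.58 in fibroblasts on days 0, 1 and 3.

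Matrix receptors were mixed, with 6 of 16 higher and 1 lower in fibroblasts, where 7.76% and 2.45% of all genes were. ITGA8 and ITGA11, integrin chains of mesenchymal cells, were higher by 4.44 and 4.48 on the log2 scale, and ITGA6, the chain of a laminin receptor, was lower, at -4.25. Of other basement membrane genes 3 of 10 were higher, COL4A5, COL4A6 and LAMA2. Of TGF-beta and PDGF genes 3 of 10 were higher, PDGFRA, PDGFRB and PDGFD, and TGFB1 was lower.

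Between ages, 6 of 18 other interstitial matrix genes were higher in fibroblasts on day 1 than on day 0 and none was lower, beside 5.8% and 4.48% of all genes. The largest ratio of these, 14.0, was that of matrix Gla protein (MGP), an inhibitor of calcification. MGP stood at 1.20, 16.8 and 34.8 per 10000 in fibroblasts on days 0, 1 and 3 and at 3.74, 20.8 and 37.8 in muscle cells, and at 5.21, 1.86 and 0.0343 in endothelial cells, the last from 3 UMIs. From day 1 to day 3, 4 of 17 genes of this list were higher and 2 lower, beside 7.1% and 5.79% of all genes, and the lower ones were PRELP, a small proteoglycan, and TNXB, a relative of tenascin-C. No gene of the collagen processing list was called from day 1 to day 3 among 17 compared, and 1, LOXL4, was higher from day 0 to day 1.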

How the data were processed

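Male piglet ileum was measured by droplet single-cell RNA sequencing, 1 library per age. The deposited files hold counts, raw and unfiltered UMIs for 20648 genes, which the authors made with Cell Ranger 3.1.0 per the file headers on the pig assembly Sscrofa11.1. The labels and the methods name different versions of the kit, and strand use in counting is not given in the sources used here.

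Cells were barcodes with at least 1000 UMIs and 500 genes. UMIs were summed per library and class and scaled to 10000 with Python 3.11.15, numpy 2.4.6, pandas 2.3.3 and scipy 1.17.1. Trimmed mean of M values scaling (edgeR 4.0.16, R 4.3.3) was an alternative only. A call needed a 2-fold difference in every library with at least 20 cells in both classes and 10 expected UMIs per group, and a class at 0 was set to 3 counts. Thinned cells were drawn down to 1000 UMIs. No doublet caller was run, and cells that met several gates were left out in an alternative instead. Scripts were tested on simulated data. The members and lists were chosen with earlier results of these data known. All 39 members are reported, and of each related list at most the 4 genes with the highest and the 4 with the lowest fold in a contrast are named. Sequences were not used here.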

Additional observations from a re-analysis of the deposited data

How the results depend on the processing

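Under 216 alternatives, 156 values stayed close to the reported one and 60 moved. In endothelial cells from day 1 to day 3, 10 of 19 genes compared in both sets turned direction with 1 gate only, among them IGFBP7, COL4A1, COL4A2, SPARC and SPARCL1. Endothelial cells against muscle on days 0 to 3, the splits within classes and of ungated cells, the matrix-rich cells, the values listed by gene for 1 gate, the sums without TIMP1 and the counts without the gate genes were chosen after seeing the data.

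Counts of matrix genes called moved as follows. The shares of all genes under the same settings are not set beside them, so the counts show only how the calls moved. For fibroblasts against B cells, 25 higher became 12 with 1 gate only, 9 with thinned cells and 13 with the PDGFRA gate, in each case all genes that were compared, and leaving out 1 library gave 25 to 36, with 36 without day 3. For fibroblasts against endothelial cells leaving out 1 library gave 25 to 26. For fibroblasts against muscle, 6 higher became 25 with 1 gate only, which left days 0 and 1, 15 with a fold of 1.5 and 11 with the PDGFRA gate, and 0 lower became 1 with 1 gate only and 1 with the PDGFRA gate. Leaving out 1 library gave 6 to 15 higher, with 15 without day 3. For endothelial cells against muscle, 0 higher became 3 with 1 gate only, on all libraries and on days 0 to 3. There 1 lower became 3 with 1 gate only, 17 without PTPRC cells, 0 when thinned and 7 without a minimum count. On days 0 to 3 it became 19, or 17 without COL1A1 and COL3A1, and 3 with 1 gate only. Leaving out 1 library gave 1 to 3, with 3 without day 14 and 3 without day 21.

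For fibroblasts on day 1 against day 0, 3 higher became 1 when thinned, 9 with a fold of 1.5 and 5 with the PDGFRA gate. There 0 lower became 1 with 1 gate only, 2 when thinned, 1 as a mean over cells, 1 without a minimum count, 4 with a fold of 1.5 and 1 with the PDGFRA gate. For day 3 against day 1, 3 higher became 5 when thinned, 5 as a mean over cells, 1 with trimmed mean scaling and 6 with a fold of 1.5, and 4 lower became 7 with 1 gate only and 10 with a fold of 1.5. For endothelial cells on day 1 against day 0, 11 higher became 2 when thinned and 17 with a fold of 1.5, and 2 lower became 0 without PTPRC cells, 0 when thinned and 1 as a mean over cells. For day 3 against day 1, 0 higher became 2 with 1 gate only, 3 without PTPRC cells, 1 when thinned, 1 as a mean over cells and 1 without a minimum count, and 19 lower became 2, 0, 2 and 9 under the first 4 of these. The causes were not tested.

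The ratio of day 0 to day 21, 43.2, became 40.9 with at least 2000 UMIs per cell, 70.5 when thinned, 72.6 as a mean over cells and 53.1 without TIMP1. The 63.1% of matrix UMIs in stromal classes became 63.4% with at least 2000 UMIs, 62.2% with at least 500 UMIs and 200 genes, 63.3% under 25% mitochondrial UMIs, 48.4% with 1 gate only, 52.3% without PTPRC cells, 64.3% when thinned, 47.8% with the PDGFRA gate and 85.0% without TIMP1. No paired analysis was possible because each age has 1 library, which leaves differences between ages without pairs; differences between classes were taken within each library. Depth limits the muscle cells of 1 gate, of which there were 13 on day 3.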

Other observations

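Among barcodes with 100 UMIs or fewer, 2 matrix genes stood out on day 21. FN1 reached 2.61 UMIs per 10000 there, from 691 UMIs in 629 barcodes with at most 3 in any barcode, whereas all cells of that day had 14 FN1 UMIs, or 0.00221 per 10000. DCN reached 1.95, from 515 UMIs in 487 barcodes, whereas all cells had 4 UMIs.

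PTN, which marked fibroblasts with PDGFRA, stood at 28.4, 16.03 and 15.5 per 10000 on days 0, 1 and 3 in cells of the PDGFRA gate. That gate asks for at least 2 UMIs of PDGFRA and none of PECAM1, and its cells include those fibroblasts.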
